A study of Mus musculus with 6 samples.

Results

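The CD3 complex and the proximal T cell receptor (TCR) signaling machinery were examined in Tregs from B16 melanoma as 9 genes: the coreceptor gene *Cd4*, the CD3 chains *Cd3d*, *Cd3e*, *Cd3g* and *Cd247*, the kinases *Lck* and *Zap70*, and the adaptors *Lat* and *Lcp2*. The members were chosen by symbol, and all 9 were present among the 12153 genes that the authors kept after removing genes with low counts. RNA-Seq was performed on 6 libraries, 3 from control mice and 3 from mice with Treg-specific deletion of the glucocorticoid receptor (GR), to ask how loss of GR changes gene expression in tumor-infiltrating Tregs. Both groups carried the floxed *Nr3c1* gene, which encodes GR. The *Nr3c1* Foxp3-Cre mice also carried Foxp3-YFP/Cre, in which the promoter of the Treg transcription factor gene *Foxp3* drives Cre and the fluorescent protein YFP, and the labels name no such allele for the controls. All mice bore B16.F10 tumors, a transplantable mouse melanoma line, and cells were collected on day 15 after inoculation. Per the labels, tumors were enzymatically digested (Liberase TL, DNase I), a Percoll step removed tumor cells, and the sort used CD45, CD4 and CD25. The study's methods instead describe Tregs gated as CD45+ CD4+ Foxp3-YFP+ after a dump gate for myeloid, B, NK and gamma-delta T cells, and which gate was used for these libraries could not be settled from the files. CD4 protein was therefore a sort marker, and the *Cd4* level was read with that in mind. The age of the mice and the number of animals behind each library are not given in the labels, so p-values measure the spread between these libraries.

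The TCR has no signaling domain of its own and is assembled with the CD3 gamma, delta, epsilon and zeta chains, whose cytoplasmic tyrosine motifs are phosphorylated by LCK, a kinase carried by CD4. ZAP70 then docks on the phosphorylated motifs and phosphorylates the adaptors LAT and SLP-76, which nucleate the complex that activates calcium, Ras and NF-kappaB signaling. Tregs need TCR signals to maintain their suppressive program, and glucocorticoids are known to dampen TCR signaling in other T cells.

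The 9 genes lie on 6 mouse chromosomes (build mm10, GENCODE M21). *Cd3g* (chr9:44969572-44980431, minus strand), *Cd3d* (chr9:44981786-44987339, plus strand) and *Cd3e* (chr9:44998740-45009627, minus strand) form a cluster, with 1354 bases between *Cd3g* and *Cd3d* and 11400 bases between *Cd3d* and *Cd3e*. *Cd247*, which encodes CD3 zeta, is at chr1:165788681-165877277 on the plus strand, and *Zap70* is on the same chromosome at chr1:36761798-36782818, also on the plus strand. *Lck* is at chr4:129548344-129573641, *Cd4* at chr6:124864692-124888221 and *Lat* at chr7:126363824-126369570, all on the minus strand. *Lcp2*, which encodes SLP-76, is at chr11:34046920-34092295 on the plus strand. Among members, *Cd247* alone overlaps another gene of the table, the antisense gene *Pou2f1*, and since the library kit does not preserve strand, their reads in shared positions cannot be told apart.

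The 250 bases before the start sites of the CD3 genes and of *Lck* are printed because *Cd3d*, *Cd3e*, *Cd3g* and *Cd247* encode the signaling chains of the receptor and because *Lck*, the most highly expressed member, has more than one start site. RefSeq sequences (GRCm38.p6, each read 5′ to 3′ on the gene's strand) were matched for 8 of 9 members, all but *Cd4*, and gave 11 windows. Capitals mark an ETS core (CAGGAAG) or a RUNX core (TGTGGT), searched on both strands, so that a site on the other strand reads CTTCCTG or ACCACA. The windows are chr9:44980432-44980681 for *Cd3g*, chr9:44981536-44981785 for *Cd3d*, chr9:45009612-45009861 for *Cd3e*, chr1:165788431-165788680 for *Cd247*, and chr4:129573642-129573891 and chr4:129558373-129558622 for the upstream and downstream start of *Lck*.
Cd3g: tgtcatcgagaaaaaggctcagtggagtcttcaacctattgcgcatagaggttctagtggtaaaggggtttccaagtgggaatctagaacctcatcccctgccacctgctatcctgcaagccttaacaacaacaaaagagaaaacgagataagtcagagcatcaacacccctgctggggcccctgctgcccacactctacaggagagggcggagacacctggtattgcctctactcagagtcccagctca
Cd3d: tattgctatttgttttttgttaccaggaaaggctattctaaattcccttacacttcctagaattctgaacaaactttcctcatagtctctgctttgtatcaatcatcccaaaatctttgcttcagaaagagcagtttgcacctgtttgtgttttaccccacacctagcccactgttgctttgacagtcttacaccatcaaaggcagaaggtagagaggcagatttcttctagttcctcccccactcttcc
Cd3e: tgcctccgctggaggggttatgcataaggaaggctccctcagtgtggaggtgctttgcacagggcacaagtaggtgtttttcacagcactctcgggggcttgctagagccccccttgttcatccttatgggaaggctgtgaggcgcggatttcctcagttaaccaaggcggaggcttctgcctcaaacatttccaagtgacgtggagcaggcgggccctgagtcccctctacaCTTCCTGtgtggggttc
Cd247: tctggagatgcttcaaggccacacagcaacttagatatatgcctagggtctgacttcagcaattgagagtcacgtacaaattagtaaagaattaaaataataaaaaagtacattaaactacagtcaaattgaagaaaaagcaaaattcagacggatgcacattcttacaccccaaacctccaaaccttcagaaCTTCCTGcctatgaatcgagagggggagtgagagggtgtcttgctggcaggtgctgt
Lck upstream start: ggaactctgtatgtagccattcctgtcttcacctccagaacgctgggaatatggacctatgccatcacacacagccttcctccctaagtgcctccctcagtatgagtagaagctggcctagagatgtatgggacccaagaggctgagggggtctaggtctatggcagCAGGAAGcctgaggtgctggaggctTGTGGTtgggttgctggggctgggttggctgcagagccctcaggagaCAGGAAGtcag
Lck downstream start: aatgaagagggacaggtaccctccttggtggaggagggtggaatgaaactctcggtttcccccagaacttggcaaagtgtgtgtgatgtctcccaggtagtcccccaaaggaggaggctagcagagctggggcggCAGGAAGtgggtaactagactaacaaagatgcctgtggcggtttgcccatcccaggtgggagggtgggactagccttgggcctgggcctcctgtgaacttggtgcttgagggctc
The ETS core was present in 5 of the 11 member windows, from *Cd247*, *Cd3e*, *Lck* and *Zap70*, and in 10.8% of all 32851 windows of this length. The RUNX core was found in 2 of the 11, 1 each from *Lck* and *Zap70*, and in 14% of all windows. The TATA box (TATAAA), found in 12.4% of all windows, and the palindromic glucocorticoid response element (AGAACA and TGTTCT with 3 bases between them), found in 0.00913% of them, did not occur in these letters in any member window. These matches are descriptions of sequence, not of binding, and the motifs were chosen after the sequences had been read.

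The deletion of GR was checked before the members. *Nr3c1* measured 7.15, 7.59 and 6.88 in controls and 6.14, 5.45 and 5.90 in *Nr3c1* Foxp3-Cre Tregs, without overlap, a log2 fold change of -1.38 (SE 0.21, adjusted p = 0.120 by limma). Among GR targets, *Tsc22d3*, which encodes GILZ, passed the test and fell by 1.56 on the log2 scale (SE 0.16, adjusted p = 0.0342 by limma). *Dusp1*, a MAP kinase phosphatase gene, was -0.56 (SE 0.13, adjusted p = 0.652 by limma) without overlap between groups, while *Fkbp5* (-0.16, SE 0.13) and *Per1* (-0.32, SE 0.33) overlapped. With control 3 or *Nr3c1* Foxp3-Cre library 2 left out, no gene passed, *Tsc22d3* included.

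None of the 9 members was called different between control and *Nr3c1* Foxp3-Cre Tregs, and every one of them had overlapping groups. Over all genes, 0.0576% were called at an adjusted p under 0.05 (limma with Benjamini-Hochberg adjustment) and 7.41% had groups without overlap. At an unadjusted p under 0.05, 0 members passed, against 3.26% of all genes. The fitted differences ran from -0.10 (*Zap70*) to 0.09 (*Lck*) on the log2 scale, and the unadjusted p from 0.395 for *Zap70* to 0.914 for *Lcp2*. The members' median log2 fold change was -0.029, beside -0.0014 for all genes, with 3 members above and 6 below their control mean, where 49.5% of all genes were above and 50.5% below. Values in the following are CPM, a gene's reads scaled to a fixed library total, on a log2 scale (log2 CPM) in libraries 1, 2 and 3 of each group. The authors had quantile-normalized them, which gives every library the same distribution of values.

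*Cd4*, the coreceptor that binds MHC class II and brings LCK to the TCR, measured 8.69, 9.32 and 9.09 in controls and 9.24, 8.78 and 9.02 in *Nr3c1* Foxp3-Cre Tregs. Control 1 was lowest and control 2 highest, so that the control libraries bracketed the others. The fitted fold was 0.986 (95% interval 0.753 to 1.29), the widest interval among members.

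Among the CD3 chains, *Cd3d* (CD3 delta) measured 8.64, 8.94 and 8.84 in controls and 8.68, 8.71 and 8.94 in *Nr3c1* Foxp3-Cre Tregs. *Cd3e* (CD3 epsilon, the chain that pairs with both delta and gamma) measured 8.65, 9.10 and 9.11 in controls and 9.08, 8.75 and 8.90 in *Nr3c1* Foxp3-Cre Tregs. *Cd3g* (CD3 gamma) measured 9.46, 9.82 and 9.77 in controls and 9.61, 9.60 and 9.71 in *Nr3c1* Foxp3-Cre Tregs. For all 3 genes of the cluster control 1 held the lowest value, and the *Nr3c1* Foxp3-Cre libraries fell inside the range of the controls for all 3. *Cd247*, the zeta chain that carries most of the tyrosine motifs of the complex, measured 7.70, 8.06 and 7.90 in controls and 7.84, 7.67 and 7.96 in *Nr3c1* Foxp3-Cre Tregs. Here *Nr3c1* Foxp3-Cre library 2 was lowest and control 2 highest, with the groups again overlapping. The fitted log2 fold changes were -0.03 (SE 0.11) for *Cd3d*, -0.04 (SE 0.14) for *Cd3e*, -0.04 (SE 0.12) for *Cd3g* and -0.07 (SE 0.12) for *Cd247*. On the linear scale the 95% intervals reached no lower than 0.774-fold (*Cd3e*) and no higher than 1.21-fold (*Cd3e*) across the 4 chains.

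The kinase gene *Lck* measured 10.45, 10.65 and 10.65 in controls and 10.51, 10.67 and 10.83 in *Nr3c1* Foxp3-Cre Tregs. *Nr3c1* Foxp3-Cre library 3 was highest and control 1 lowest, and the fold was 1.06 (95% interval 0.878 to 1.28). *Zap70*, which encodes the kinase recruited to phosphorylated CD3 chains, measured 7.66, 7.99 and 7.97 in controls and 7.73, 7.69 and 7.89 in *Nr3c1* Foxp3-Cre Tregs. All 3 *Nr3c1* Foxp3-Cre values lay below 2 of the controls but above control 1. *Zap70* had the largest fitted difference of the members, a fold of 0.931 (95% interval 0.777 to 1.11).

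Of the adaptors, *Lat*, the membrane scaffold phosphorylated by ZAP70, measured 8.37, 8.50 and 8.53 in controls and 8.28, 8.55 and 8.63 in *Nr3c1* Foxp3-Cre Tregs. The controls sat inside the range of the *Nr3c1* Foxp3-Cre libraries, and the fold was 1.02 (95% interval 0.852 to 1.21). *Lcp2*, whose product SLP-76 binds LAT through GADS, measured 9.02, 9.28 and 9.14 in controls and 9.16, 9.10 and 9.22 in *Nr3c1* Foxp3-Cre Tregs. All *Nr3c1* Foxp3-Cre values lay inside the control range, and *Lcp2* had the narrowest interval of the members, a log2 fold change of 0.011 (95% interval -0.22 to 0.24).

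**Figure D1:**
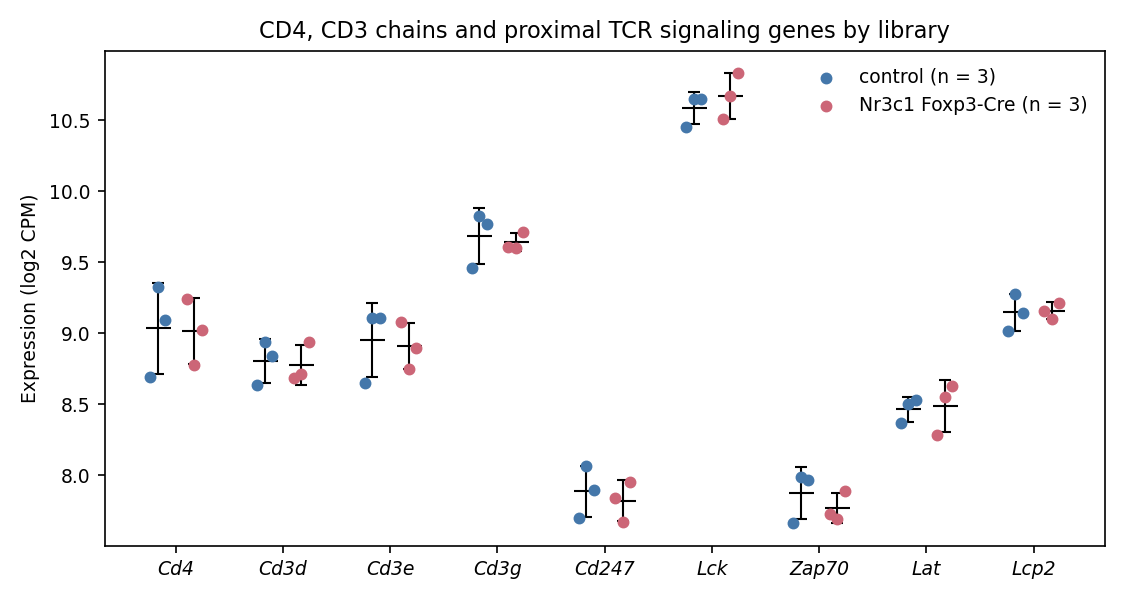
Level of each member (vertical axis, log2 CPM) in 3 control and 3 Nr3c1 Foxp3-Cre libraries; points are libraries, and bars show the mean and SD of each group. Levels ran from 7.66 for Zap70 to 10.83 for Lck, and the groups overlapped for all 9 genes.

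**Figure D2:**
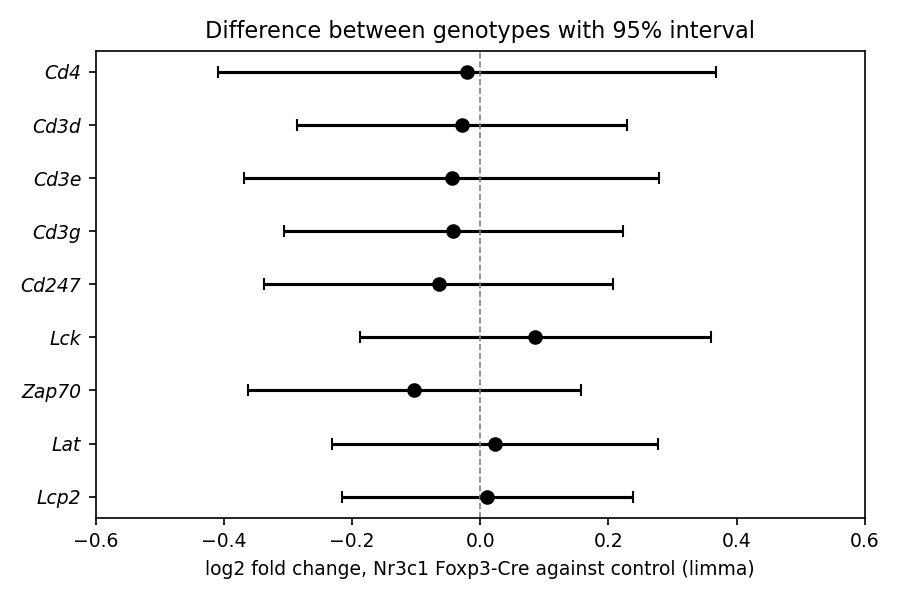
Log2 fold change of each member in Nr3c1 Foxp3-Cre against control Tregs (points) with its 95% interval from limma (bars). All 9 intervals include 0, and that of Cd4, from -0.41 to 0.37, is the widest.

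The precision behind these comparisons was higher than for most genes in the table, with a median SE of 0.117 on the log2 scale for the members (0.10 to 0.17) and 0.181 for all genes. At the level of the members, a mean of 7.82 to 10.63 log2 CPM, the table held 806 genes, with a median SE of 0.112. Among these, 76.2% had an absolute log2 fold change no larger than that of *Zap70*, and so did 48.4% of all genes. Small differences were thus common at this level of expression. The cut was the members' own largest difference, so all 9 fell within it by construction. The median absolute log2 fold change was 0.042 for the members, 0.054 for the 806 genes and 0.108 for all genes. The direction of the members' differences depended on single libraries. Without control 1, 1 of the 9 members was higher in *Nr3c1* Foxp3-Cre Tregs (*Lck*), and without control 2, 8 of the 9 were, all but *Zap70*. Without control 3 the number was 5, without *Nr3c1* Foxp3-Cre library 1 it was 4, without *Nr3c1* Foxp3-Cre library 2 it was 6, and without *Nr3c1* Foxp3-Cre library 3 it was 1. No member passed in any of these fits, the lowest unadjusted p being 0.0844 for *Zap70* without control 1.

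The T cell signal of each library was described by CPM, which reflects RNA and not cells. The CPM here are quantile-normalized, so they and their sums are not direct shares of a library's reads. Summed over the 9 members, the level was 4579, 5697 and 5455 CPM in controls and 5120, 5026 and 5624 CPM in *Nr3c1* Foxp3-Cre Tregs, or 0.458% to 0.570% of each library's normalized total. A separate list of 12 T cell markers that holds no member, among them the adhesion receptor gene *Cd2* and its fellow surface receptor gene *Cd6*, summed to 5817, 7215 and 6709 CPM in controls and 6898, 6520 and 6880 CPM in *Nr3c1* Foxp3-Cre Tregs (exact two-sided permutation p = 0.8; the smallest that 3 against 3 can give is 0.1). Control 1 held the lowest and control 2 the highest sum of both sets. In bulk RNA, fewer T cells and less RNA per T cell cannot be told apart.

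Markers of other cells were also measured, although the sort on CD45 should remove melanoma cells and fibroblasts and the dump gate of the study's methods most other leukocytes. All 8 melanoma markers were present, led by the pigment enzyme gene *Dct* and by *Gpnmb*, and they summed to 11725, 4395 and 8651 CPM in controls and 8173, 11986 and 4925 CPM in *Nr3c1* Foxp3-Cre Tregs (exact permutation p = 0.9). This was more than the T cell marker sum in 4 of the 6 libraries. Ordered by the melanoma marker sum, the 2 libraries with the lowest sums, control 2 and *Nr3c1* Foxp3-Cre library 3, had the highest means of the members, 9.07 and 9.01 log2 CPM. The 2 with the highest sums, control 1 and *Nr3c1* Foxp3-Cre library 2, had the lowest means of the members, 8.74 and 8.84 log2 CPM. Taking the mean melanoma marker level as a covariate, an alternative chosen after seeing the data, lowered the SE of all 9 members, for *Cd4* from 0.17 to 0.13 and for *Cd247* from 0.12 to 0.089, and called none of them. Over all 12153 genes, the number at an unadjusted p under 0.05 (limma) rose from 396 to 669 with this covariate. The share of all genes whose SE fell was not computed, so no result about the members is drawn. The part of melanoma RNA in the spread of the members was not tested.

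**Figure D3:**
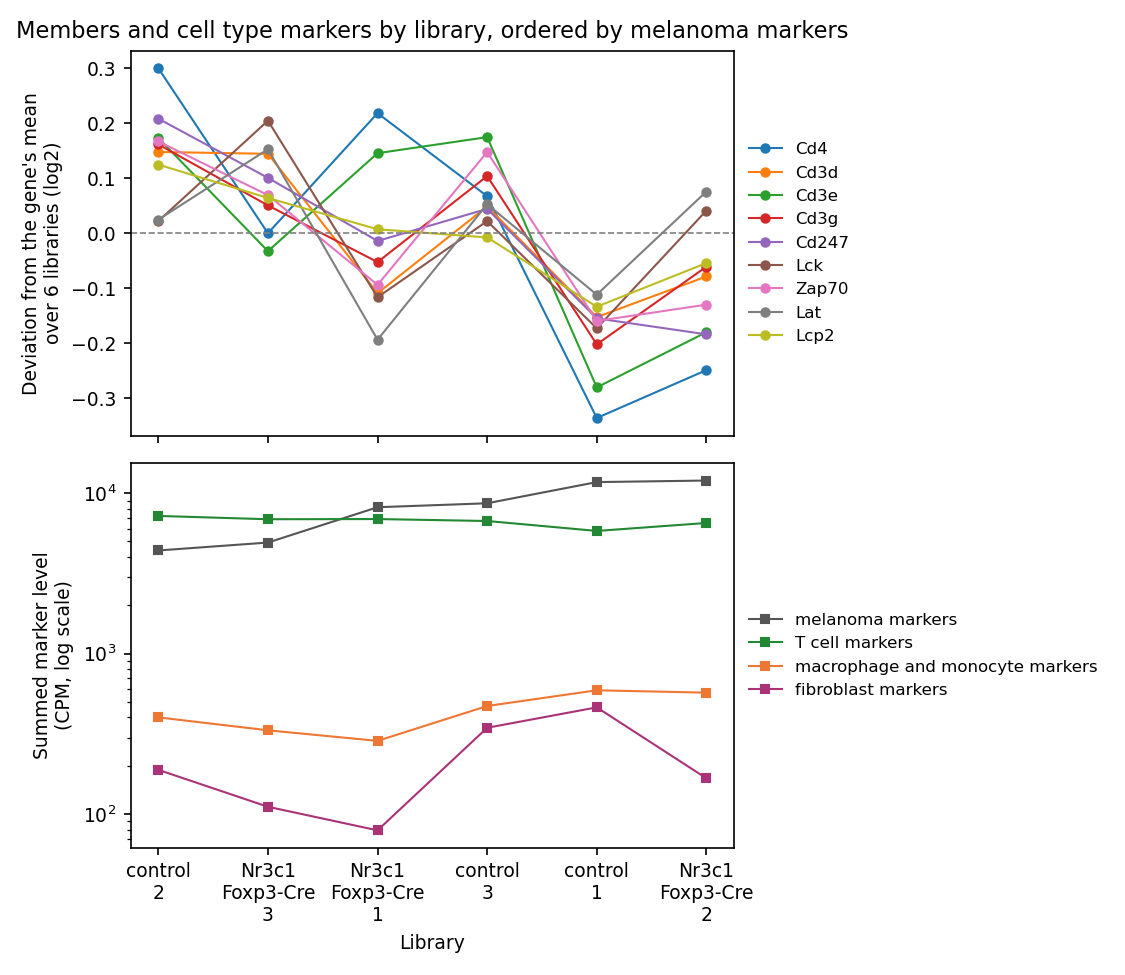
Upper panel, deviation of each member from its own mean over 6 libraries (log2); lower panel, summed level of 4 marker lists (CPM, log axis), with libraries ordered from the lowest to the highest melanoma marker sum. All 9 members were above their means in control 2 and below them in control 1, and the melanoma markers ran from 4395 to 11986 CPM.

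Macrophage and monocyte markers (12 of 12 present, led by *Lyz2* and *C1qb*) summed to 401 to 591 CPM in controls and 286 to 571 CPM in *Nr3c1* Foxp3-Cre Tregs (exact permutation p = 0.4). Of these markers, 11 were lower and 1 higher in direction, where 50.5% of all genes were lower. Their mean log2 CPM differed by -0.56 (exact permutation p = 0.2). Fibroblast markers (6 of 6 present, led by the collagen genes *Col3a1* and *Col1a2*) summed to 189 to 463 CPM in controls and 79.2 to 167 CPM in *Nr3c1* Foxp3-Cre Tregs, without overlap (exact permutation p = 0.1, the smallest possible). *Col3a1* had a log2 fold change of -1.41 (SE 0.40) and *Col1a2* of -1.69 (SE 0.31, adjusted p = 0.271 by limma), and no fibroblast marker passed the test. The part of these cells in the members' values was not tested. Erythroid markers, led by *Hba-a2* and *Hbb-bs*, summed to 46.9 to 177 CPM. Sums under 100 CPM in every library were found for dendritic cell markers (4 of 7 present, 34.7 to 56.0 CPM), endothelium (3 of 5, 54.3 to 77.1 CPM), B cells (2 of 6, 15.7 to 23.4 CPM) and mast cells and platelets (2 of 6, 12.7 to 19.7 CPM). NK cell and neutrophil markers were not in the table (0 of 5 each), *Cd8b1* alone of 2 CD8 T cell markers was, at 7.62 to 15.6 CPM, and *Trdc* alone of 5 gamma-delta markers was, at 0.504 to 12.2 CPM. The 8 Treg markers, led by *Tnfrsf4* and *Tnfrsf18*, summed to 4725 to 6540 CPM in controls and 4750 to 5325 CPM in *Nr3c1* Foxp3-Cre Tregs (exact permutation p = 0.9). A sum led by a few genes cannot settle the sorted identity. Of the 8 markers, 5 were higher and 3 lower in direction, and 1 had an unadjusted p under 0.05 (limma), against 3.26% of all genes. The largest differences were 0.43 for *Ikzf4* (SE 0.18) and -0.40 for *Ctla4* (SE 0.21), both with overlapping groups, and neither passed. The defining gene *Foxp3* was present in every library at a low level, 3.39 to 4.47 log2 CPM.

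Expressed relative to the T cell marker mean of the same library, all 9 members had overlapping groups, against 6.57% of all genes without overlap when scaled in this way. The largest difference was that of *Zap70*, at -0.57, -0.66 and -0.51 relative to the marker mean in controls and -0.85, -0.69 and -0.64 in *Nr3c1* Foxp3-Cre Tregs, a log2 difference of -0.14 (exact permutation p = 0.2). For *Zap70* one *Nr3c1* Foxp3-Cre value, that of library 3, was above one control value, that of control 2. The differences of *Zap70*, *Cd247* (-0.11) and *Cd3g* (-0.084) were larger than their SD within groups (0.093, 0.065 and 0.079), with exact permutation p of 0.2 to 0.3. These genes were picked after the values were seen. The share of all genes with a difference larger than its SD was not computed, so no result about the members is drawn. *Lck* had the only positive difference, 0.04. The marker mean was itself 0.042 higher in *Nr3c1* Foxp3-Cre Tregs, so this scaling lowered every gene by that amount. The median difference of all genes was -0.043 in this scaling, and the differences of all 9 members include the shift. The differences depended on the reference. Relative to the mean of *Cd3d*, *Cd3e* and *Cd3g*, 5 members had a positive difference, among them *Lck* at 0.12, *Lat* at 0.06 and *Lcp2* at 0.05. *Zap70* was at -0.06, and groups overlapped for all 9. *Cd3d*, also among the 5, *Cd3e* and *Cd3g* form this reference themselves. Their own differences cancel by construction and say nothing about a change in these genes. Scaling to the T cell markers narrowed the SD within groups for 7 of the 9 members, all but *Lck* and *Lat*, and the median SD went from 0.146 to 0.0942 on the log2 scale. In these 6 libraries the levels of *Lck* and *Lat* followed those of the T cell markers less closely than the other members did.

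This was seen also in the members' likeness to each other over the 6 libraries. Of 36 pairs of members, 34 had a positive Pearson r, with a median of 0.758, and 21 had an r above 0.7. The pairs *Cd3g* and *Zap70* and *Cd4* and *Cd3e* were closest, both at 0.95, and within the gene cluster *Cd3g* and *Cd3d* reached 0.90. *Lck* and *Lat* had an r of 0.92 with each other, 0.80 and 0.72 with *Cd3d*, 0.63 and 0.54 with *Cd3g*, 0.18 and -0.08 with *Cd4*, and 0.19 and -0.02 with *Cd3e*. The mean of *Lck* and *Lat* exceeded that of *Cd4* and *Cd3e* by 0.74, 0.36 and 0.49 in controls and by 0.24, 0.85 and 0.77 in *Nr3c1* Foxp3-Cre Tregs on the log2 CPM scale, so this contrast, chosen after the values were seen, ran across both genotypes. With the T cell marker mean, r was 0.96 for *Cd4* and 0.94 for *Lcp2* but 0.42 for *Lck* and 0.14 for *Lat*, and with the melanoma marker mean it was negative for all 9, from -0.93 for *Lcp2* to -0.41 for *Lat*. These correlations rest on 6 libraries that share one normalization and are given as descriptions.

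**Figure D4:**
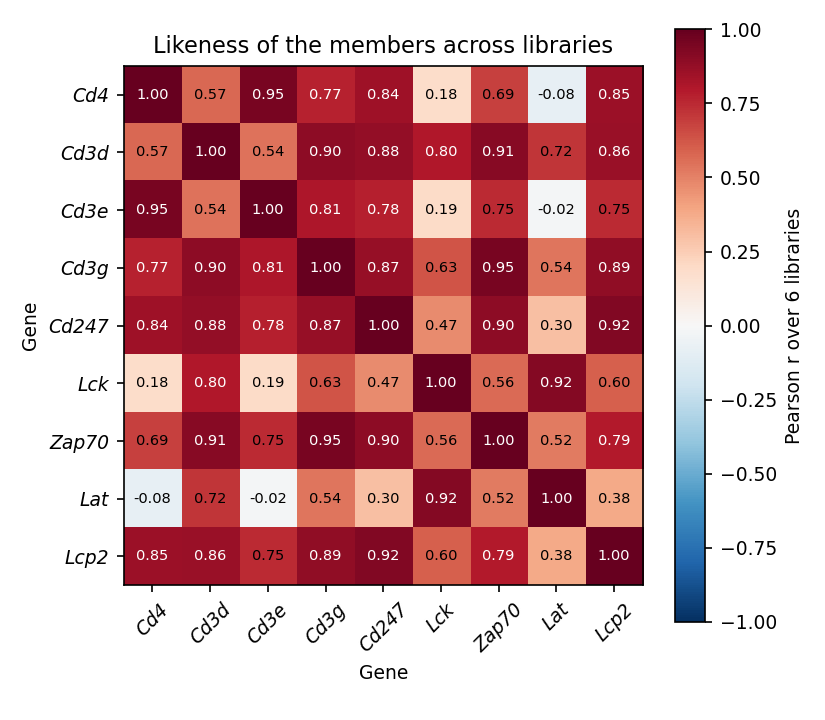
Pearson r between each pair of members over the 6 libraries, with genes on both axes and the value printed in each cell (color scale from -1 to 1). Lck and Lat reach 0.92 with each other, 0.80 and 0.72 with Cd3d, and -0.08 to 0.19 with Cd4 and Cd3e.

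Genes outside the complex with the pattern most like the mean of the members were *Pef1* (r = 0.991), *Srf* (0.989), *Gpsm3* (0.987), *Dubr* (0.985) and *Efhd2* (0.985). The most opposite were *Xpnpep1* (r = -0.999), *Yrdc* (-0.991) and *Mboat2* (-0.987). The search covered 9282 genes with a mean of at least 3 log2 CPM, of which 191 had an r of at least 0.9 and 248 an r of -0.9 or below, so likeness of this degree over 6 libraries was frequent in both directions.

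Compared per kilobase of exon, the level was highest for *Lck*, at 9.08 log2 CPM per kb (SD 0.13, n = 6), which ranked between 45 and 67 of 12130 genes in each library. *Cd3g* (7.95) and *Cd3d* (7.93) followed, and these neighbors did not differ beyond their spread, *Cd3g* being above *Cd3d* in 4 of 6 libraries. *Cd4* (7.01, SD 0.25), *Lat* (7.01), *Lcp2* and *Cd3e* (6.90) formed a group within which no neighbor was above the next in all libraries. *Zap70* (6.24) and *Cd247* (5.44) were lowest, each below its upper neighbor in 6 of 6 libraries. The order depended on the length used. Per kb of the mean protein-coding transcript, *Cd3g* came first at 10.14, above *Lck* at 9.87, and *Cd4* (7.39) moved in the order from place 4 to place 8, just after *Zap70* (7.39), with *Cd247* last at 6.71.

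Differences were also small in the wider pathway. Of 67 listed genes of TCR signaling that are not members, 4 of which (*Trac*, *Trbc1* and *Trbc2* among them) are also T cell markers above, 66 were in the table, and 32 had a positive and 34 a negative difference, with a median log2 fold change of -0.0046 and a range from -0.27 to 0.38. None passed at an adjusted p under 0.05 (limma) and 0 at an unadjusted p under 0.05, against 3.26% of all genes. Weighting libraries by quality put 3 of them under that unadjusted threshold, along with 1376 of all 12153 genes, and leaving out single libraries put 0 to 2, along with 290 to 703 of all genes. Groups did not overlap for 2 of the 66, where 7.41% of all genes had none, and both encode catalytic subunits of the phosphatase calcineurin, which activates NFAT. *Ppp3ca* measured 5.57 to 5.68 log2 CPM in controls and 5.69 to 6.05 in *Nr3c1* Foxp3-Cre Tregs, and *Ppp3cb*, named after its values were seen, 5.20 to 5.38 in controls and 5.03 to 5.13 in *Nr3c1* Foxp3-Cre Tregs. The fitted log2 differences had opposite signs, 0.26 (SE 0.13) for *Ppp3ca* and -0.23 (SE 0.13) for *Ppp3cb*, and neither passed.

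By role, the receptor's constant chains were represented by *Trac*, *Trbc1* and *Trbc2*, with *Trbc2* at 8.73 to 9.23 log2 CPM in controls and 9.07 to 9.10 in *Nr3c1* Foxp3-Cre Tregs, a log2 fold change of 0.10 (SE 0.13). Of 5 kinases, 3 were higher in direction. The phosphatases were 5 higher and 4 lower, with *Ptprc*, which encodes CD45 and removes the inhibitory phosphate of LCK, at 0.20 (SE 0.12, unadjusted p = 0.122). CD45 was also a sort marker. The 14 measured adaptors were 5 higher and 9 lower, with *Grb2* at 0.16 (SE 0.12). Enzymes and channels were 7 higher and 6 lower, with *Prkcq*, which encodes PKC-theta, at 0.19 (SE 0.11, unadjusted p = 0.116). The 12 negative regulators were 5 higher and 7 lower, with the diacylglycerol kinase gene *Dgka* at 0.17 (SE 0.13).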

How the data were processed

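Tumor Tregs were profiled by RNA-Seq in 6 libraries, and the genotype in the labels put 3 in the control and 3 in the *Nr3c1* Foxp3-Cre group. Libraries were prepared with a low-input kit that does not keep strand. Reads were trimmed (Cutadapt), aligned to mm10 (STAR) and counted per gene of GENCODE M21 (RSEM) by the authors, who then filtered low counts and applied quantile normalization before limma-voom. The authors deposited log2 CPM from this normalization. Counts per gene were not used here, so depth is unknown, no counting interval is given, and the number of libraries limits the precision.

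Here limma 3.58.1 (R 4.3.3) was run on the whole table of 12153 genes, with genotype in the model and a mean-variance trend in eBayes, and p-values were adjusted over all of them (Benjamini-Hochberg, 0.05). The fit was tested on simulated data with independent noise for each gene and library. That cannot show how the fit behaves where genes vary together, as many did in these libraries. For CPM sums and levels relative to markers the test was an exact permutation of libraries, two-sided. GENCODE M21 gave positions and exon lengths (12130 genes matched), and RefSeq gave promoters.

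The members and the lists were chosen with earlier results of these data known. Genes named besides the members were those with the smallest p in each role of the pathway list, the 2 highest of each cell type list over 100 CPM in any library, GR targets, the genes most and least like the mean of the members, and the neighbor of each member with the largest change at an unadjusted p under 0.05. Some of the genes so chosen are not reported here. The alternatives changed the eBayes step (no trend, robust), the weights (vooma, sample quality), the treatment of low values (a mean of at least 1, or values under log2 0 set to 0), the scaling (cyclic loess, the median, T cell markers), the model (a replicate block), the threshold (0.1), and the references, sums and lengths, and left out each library. A covariate for melanoma markers was added after seeing the data.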

Additional observations from a re-analysis of the deposited data

How the results depend on the processing

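No member was called in any of the 17 alternative fits, and the smallest adjusted p was 0.531 (limma). Over all genes, 1 was higher and 6 lower, and these counts became 0 and 0 without a trend (469 genes at an unadjusted p under 0.05), 2 higher with vooma weights, 7 and 12 with sample quality weights, and 4 and 14 with melanoma markers in the model, a setting added later. With a replicate block 0 and 0 passed (275 unadjusted). Each replicate number occurs once in each group, so this block cannot change a fold change, and the members' directions were fixed in advance. Same-numbered libraries did not deviate together (r = -0.117, -0.329 and -0.0246). With 3 libraries per group, these correlations cannot decide whether same-numbered libraries also shared a preparation, and the labels name none. Leaving out single libraries gave 0 to 3 higher and 0 to 5 lower genes, 1 to 8 members higher in direction and 0 to 2 of 66 pathway genes at an unadjusted p under 0.05 (290 to 703 of all genes), which was 3 with sample quality weights (1376 of all genes). Centering on the T cell markers left 1 member higher and turned *Lat* to -0.019 and *Lcp2* to -0.031. This centering shifted all genes alike, with a median log2 fold change of -0.043 over all genes. Sample quality weights turned *Lat* to -0.032. Leaving out single libraries gave log2 fold changes of -0.19 to 0.12 for *Cd4*, -0.11 to 0.037 for *Cd3d*, -0.20 to 0.034 for *Cd3e*, -0.15 to 0.028 for *Cd3g*, -0.16 to 0.023 for *Cd247*, -0.047 to 0.13 for *Lat* and -0.053 to 0.076 for *Lcp2*. *Lck* (0.0053 to 0.17) and *Zap70* (-0.21 to -0.046) kept their direction in all of these. Of 288 values under alternatives, 225 stayed within the limits set for a change, 43 moved beyond them and 20 changed sign. With no member called in any fit, a member's fold change counted as changed only if its sign did. The fits without a trend, with robust eBayes, with vooma weights and with a block left the members' fold changes identical. The count of 225 is therefore no measure of stability. The cause of these changes was not tested.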

Other observations

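Genes around the members were read as a description. Within 500 kb of a member, 0 genes had an adjusted p under 0.05 (limma), and those with the largest change at an unadjusted p under 0.05 were expressed at low levels. Over all genes 3.26% were under that threshold. Near *Cd4*, 4 of 39 genes were, with *Gm44597* at a log2 fold change of 1.51 (SE 0.63, mean 0.79 log2 CPM). Near *Lck*, 1 of 20 genes was, *Zbtb8a*, a zinc finger gene, at -2.49 (SE 0.77, mean 0.20 log2 CPM). Near *Zap70*, 1 of 13 genes was, *Ankrd23*, at 0.93 (SE 0.35, mean 2.81 log2 CPM). None of the 17 genes around the CD3 cluster, the 6 around *Cd247* and the 23 around *Lat* was under that threshold, nor was *Dock2*, a leukocyte Rac activator gene and the 1 measured gene near *Lcp2*, at 0.27 (SE 0.13).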
